A study of Macaca mulatta with 2 samples.

Results

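The 7 connexin genes described here are *GJA1*, *GJB6*, *GJB2*, *GJB1*, *GJC1*, *GJA4* and *GJA5*, which were taken by symbol from a table of 16684 genes measured by bulk RNA-seq in macaque optic nerve. All 7 were listed. The data comprised 2 libraries, Rep1 and Rep2, of the only condition, wild-type and untreated optic nerve of *Macaca mulatta*. The GEO description names 2 animals, whereas the study's methods name 1 male of 12 years whose eyes were collected postmortem, so whether the libraries came from separate animals is unknown and their spread may be technical. Values were deposited as transcripts per 1000000 (TPM), the reads of a gene divided by its length and scaled to 1000000 in each library, so levels of different genes can be compared per length. With 1 condition there is no group comparison, and levels are given as mean ± SD of the libraries beside each library's own value.

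Connexins are the subunits of gap junctions. A ring of connexins forms a hemichannel, and hemichannels of neighbouring cells dock to form a channel that passes ions, glucose, lactate and other small molecules. In white matter such as the optic nerve, astrocytes are coupled to each other mainly through Cx43 (*GJA1*) and Cx30 (*GJB6*), with Cx26 (*GJB2*) known from astrocytes and from cells of the leptomeninges. Oligodendrocytes contribute Cx32 (*GJB1*), among others, and are coupled to astrocytes. Cx37 (*GJA4*) and Cx40 (*GJA5*) are known from arterial endothelium, and Cx45 (*GJC1*) from smooth muscle and from some neurons, including neurons of the retina.

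The members are paralogs, and the stretch of coding sequence shown here for 5 of them lies in the first extracellular loop, which takes part in docking. It is given because this loop is known to be conserved across the family, and reads can be told apart between members only where their sequences differ. Each sequence was read from the RefSeq annotation of Mmul_10, runs 5′ to 3′ on the coding strand over 36 bases, and has its cysteine codons in capitals.

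GJA1: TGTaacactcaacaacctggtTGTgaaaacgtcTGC

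GJB6: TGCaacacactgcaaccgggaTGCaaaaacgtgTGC

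GJB2: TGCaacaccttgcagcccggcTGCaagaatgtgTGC

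GJB1: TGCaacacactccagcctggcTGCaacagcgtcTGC

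GJC1: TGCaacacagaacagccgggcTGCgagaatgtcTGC

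These stretches lie at chr4:24957757-24957792 (*GJA1*), chr17:845522-845557 (*GJB6*), chr17:869024-869059 (*GJB2*), chrX:68213795-68213830 (*GJB1*) and, on the minus strand, chr16:56074043-56074078 (*GJC1*). All 7 members held, once each, 3 cysteine codons spaced by 6 and by 3 codons, as in those printed, and once each a second set spaced by 4 and by 5 codons further along. Over the 36 bases, *GJB6* and *GJB2* differed at 7 positions, and *GJA1* and *GJB2* at 13.

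Over the whole coding sequence, *GJB6* and *GJB2* were the most alike, with 67.3% identical positions in a global alignment. *GJA4* and *GJA5* shared 61.0% and *GJA1* and *GJA5* 59.9%, whereas *GJB2* and *GJC1*, at 42.3%, were the least alike. The longest exact run shared by transcripts of any members was 41 bases, in the coding sequences of *GJA1* and *GJA4*, and that of *GJB6* and *GJB2* was 30 bases. No 50-base word of a member's transcripts occurred in a RefSeq transcript of another gene on either strand. A search of the Mmul_10 genome for other places aligned over at least 200 bases at 90 percent identity found 0 for each of the 7.

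All 7 are annotated as protein coding with a single coding exon, and no annotated gene overlaps any of them. *GJA1* lies on chromosome 4 from 24941961 to 24960480, *GJB1* on chromosome X from 68203013 to 68215133, and *GJC1* on chromosome 16 from 56071022 to 56099249. *GJB6* (838192 to 846884) and *GJB2* (865444 to 870982) lie close together on chromosome 17, both on the plus strand, with 18559 bases and 1 other annotated gene between them. *GJA4* (189838571 to 189841328) and *GJA5* (102325539 to 102343003) both lie on chromosome 1, far apart and on opposite strands.

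The libraries differed widely over the whole table, which bears on every value below. Rep1 listed 38.5% of genes at 0 and Rep2 12.5%, and a read of Rep1 carried 17.2 times the TPM of a read of Rep2, so the values of Rep1 rest on far fewer reads. Among the 11754 genes whose mean reached 1 TPM, 58.7% were at least 2-fold lower in Rep1 on the log2(TPM + 1) scale and 18.2% at least 2-fold higher. Rep1 also held some genes of photoreceptors and neurons at far higher levels than Rep2, such as *GNAT1*, which encodes the rod transducin subunit, at 2763 and 1.56 TPM, and the synaptic gene *SNAP25*, at 1122 and 4.99 TPM. Others differed little or were higher in Rep2, among them *SAG* at 1.74 and 1.82 TPM, *NEFL* at 3.63 and 3.65 TPM and *NEFM* at 7.48 and 15.9 TPM. The lower depth and these transcripts occur in the same library, and their part in any single difference was not tested.

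The most abundant connexin was *GJB1*, which encodes the oligodendrocyte connexin Cx32. It stood at 58.8 TPM in Rep1 against 241 TPM in Rep2, a mean of 149.9 ± 128.8 TPM (SD, n = 2 libraries), or percentile 92.6 when ranked among the 14693 genes that either library detected. It ranked first of the 7 in both libraries, on at least 32 reads in Rep1 and 2253 in Rep2. These are the smallest whole read numbers whose ratio, times the 17.2 given above, equals the ratio of its values.

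The 3 connexins known from astrocytes came next on the mean. *GJB6* stood at 13.2 TPM in Rep1 against 134 TPM in Rep2 (73.7 ± 85.5 TPM, n = 2, percentile 85.4), on at least 25 and 4357 reads. *GJA1* stood at 9.11 and 57.2 TPM (33.2 ± 34.04 TPM, n = 2, percentile 73.3), on at least 28 and 3025 reads. *GJB2* stood at 9.96 and 49.1 TPM (29.5 ± 27.7 TPM, n = 2, percentile 71.2), on at least 23 and 1947 reads. All 3 were several-fold lower in Rep1, and *GJB6* was above *GJA1* in both libraries, by 1.45 times in Rep1 and 2.34 times in Rep2. *GJA1* and *GJB2* lay close together in each library, with *GJB2* slightly higher in Rep1 and *GJA1* slightly higher in Rep2.

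*GJC1*, which encodes Cx45, showed the opposite pattern. It stood at 28.03 TPM in Rep1 against 0.224 TPM in Rep2, a mean of 14.1 ± 19.7 TPM (SD, n = 2), on at least 51 and 7 reads. It was thus the second of the 7 in Rep1 and the lowest in Rep2, and its mean describes neither library. Among the 200 genes nearest to it in Rep2 level, 85.0% were listed at 0 in Rep1.

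Both connexins of arterial endothelium were low. *GJA4* stood at 4.42 TPM in Rep1 against 4.76 TPM in Rep2 (4.59 ± 0.240 TPM, n = 2, percentile 37.9), on at least 2 and 37 reads. The closeness of these values is not a measure of precision, since the SD of a single library among the 200 genes of most similar level was 2.04 on the log2(TPM + 1) scale. *GJA5*, listed at 0 in Rep1, reached 1.01 TPM in Rep2. Of the 200 genes nearest to it in Rep2 level, 69.5% were also listed at 0 in Rep1, so that *GJA5* was not detected in that library at its depth, which does not show that it was absent.

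**Figure D1:**
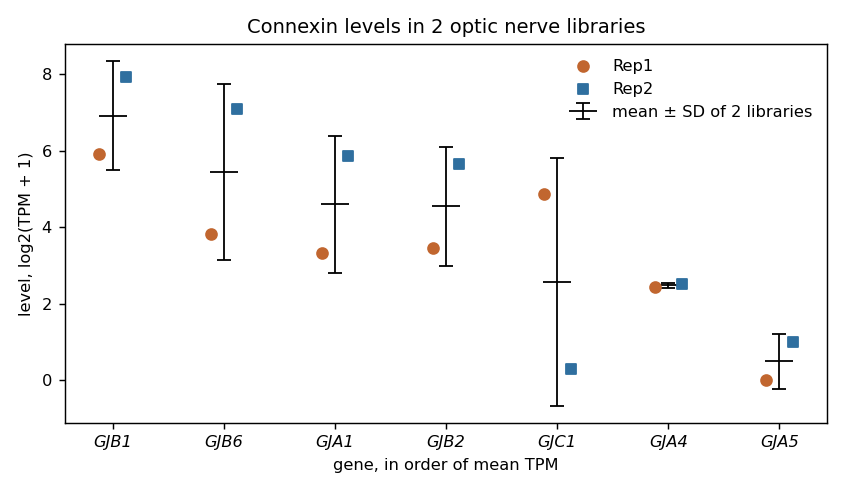
Level of each connexin, as log2(TPM + 1), in Rep1 (circles) and Rep2 (squares), with the mean and the SD of the 2 libraries as a dash and bars, genes in order of mean TPM. *GJB1* is the highest in both libraries, *GJC1* is the only member with Rep1 far above Rep2, and the values of *GJA4* nearly coincide at 4.42 and 4.76 TPM.

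On the mean the order of the levels was *GJB1*, *GJB6*, *GJA1*, *GJB2*, *GJC1*, *GJA4* and *GJA5*. Of the 21 pairs of members, 15 stood in this order in both libraries and 6 did not, and 5 of those 6 involved *GJC1*. The other was *GJA1* and *GJB2*. Without *GJC1*, 14 of 15 pairs kept their order in both libraries.

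Set against the spread between libraries, 4 of the 6 neighbouring pairs in this order lay within 1 SD of each other. That spread was taken as the SD of a single library, estimated in the 200 genes closest to a member in mean level from how far Rep1 and Rep2 lay apart. On the mean of log2(TPM + 1), *GJB1* was above *GJB6* by 1.46, or 0.938 SDs. *GJB6* was above *GJA1* by 0.85 (0.536 SDs), and *GJA1* and *GJB2* differed by 0.050 (0.0309 SDs). *GJC1* and *GJA4* also lay within 1 SD (0.0465 SDs). This SD includes the shift between the libraries, which cancels when genes are compared within a library. Taken that way, the difference was 1.46 ± 0.87 between *GJB1* and *GJB6* and 0.85 ± 0.51 between *GJB6* and *GJA1*. These are the mean ± SD of the within-library differences (n = 2), and both means were larger than 1 SD. An SD of 2 values is itself uncertain, so this adds little to the order being the same in both libraries. *GJB6* was above *GJB2* by 0.90 ± 0.75, whereas *GJA1* and *GJB2*, at 0.050 ± 0.24, stayed within 1 SD. By the SD of a single library, the 2 neighbouring pairs that differed by more than 1 SD were *GJB2* over *GJC1* (1.10 SDs), which had the opposite order in Rep1 and a within-library difference of 1.98 ± 4.78, and *GJA4* over *GJA5* (1.31 SDs). On the same scale *GJB1* was above *GJA1* by 1.42 SDs and above *GJB2* by 1.49 SDs.

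The share of each gene in the summed connexin TPM of a library does not depend on how that library is scaled. The 7 members summed to 124 TPM in Rep1 against 487 TPM in Rep2, 3.95 times higher in Rep2. *GJB1* took 47.6% of this sum in Rep1 and 49.4% in Rep2 (48.5 ± 1.30%, n = 2), while its level differed 4.10 times. The nearness of these shares depends on the genes summed, since *GJC1* filled much of the sum in Rep1 only. Over all 21 connexin genes *GJB1* took 42.9% in Rep1 and 48.2% in Rep2. Its ratio to *GJB6* was 4.45 in Rep1 and 1.80 in Rep2. Of the sum over the 7 members, *GJB2* took 8.07% and 10.1% (9.07 ± 1.42%), and *GJA1* took 7.37% and 11.7% (9.56 ± 3.09%). The shares of a pair of genes moved more than these. *GJB6* took 10.7% in Rep1 and 27.5% in Rep2, and *GJC1* took 22.7% and 0.0459%.

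The astrocyte connexins *GJA1*, *GJB6* and *GJB2* together took 26.1% of the sum in Rep1 and 49.3% in Rep2. Among these 3 genes alone, *GJB6* was the largest part in both libraries, at 40.9% in Rep1 and 55.8% in Rep2. *GJA1* was 28.2% and 23.8%, and *GJB2* 30.9% and 20.4%. In Rep2, the 4 glial connexins, with *GJB1*, made up 98.8% of the members' TPM, against 73.7% in Rep1, where *GJC1* and *GJA4* filled the rest.

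**Figure D2:**
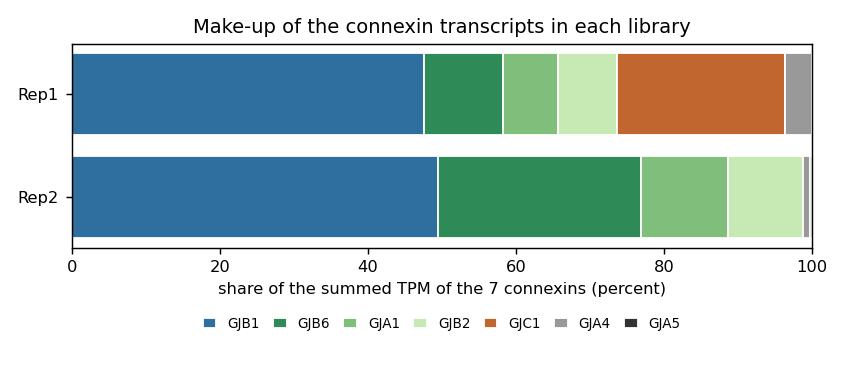
Share of each gene in the summed TPM of the 7 connexins, in percent, with 1 bar for each library. *GJB1* takes 47.6% in Rep1 and 49.4% in Rep2, the 3 astrocyte connexins (greens) take 26.1% and 49.3%, and *GJC1* (orange) takes 22.7% in Rep1 and is too small to be seen in Rep2.

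Between the libraries, 6 of the 7 members were lower in Rep1 and 1 was higher. Of all 14693 genes above 0 in at least 1 library, 11146 were lower in Rep1 and 3547 higher. The median difference of the members (Rep1 minus Rep2) was -2.02 on the log2(TPM + 1) scale, against -1.07 over these 14693 genes. These medians are not of like sets. Of the 7 members, 6 reached a mean of 1 TPM, whereas the 14693 include lower genes, whose differences this scale makes look smaller. Of the 6 members whose mean reached 1 TPM, *GJB6* (-3.25), *GJA1* (-2.53), *GJB2* (-2.19) and *GJB1* (-2.02) were at least 2-fold lower in Rep1, where 58.7% of all genes of that level were. *GJC1* (4.57) was at least 2-fold higher, as were 18.2% of all genes, and *GJA4* (-0.087) was neither. The difference of *GJC1* stood at percentile 98.9 and that of *GJB6* at percentile 11.8 of the 11754 genes whose mean reached 1 TPM. Between them lay *GJA4* at percentile 70.8, *GJB1* at 37.9, *GJB2* at 33.5 and *GJA1* at 25.7. When the libraries were scaled by the median of ratios, which corrects a shift of Rep1 against Rep2 of -1.19 on the log2 scale, *GJB6* was at -2.10, *GJA1* at -1.40, *GJB2* at -1.06 and *GJB1* at -0.84, while *GJC1* was at 5.24 and *GJA4* changed sign to 0.89. With this scaling, 3 of the 6 members were at least 2-fold lower in Rep1 and 1 at least 2-fold higher, against 38.4% and 30.04% of all genes whose mean then reached 1 TPM.

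**Figure D3:**
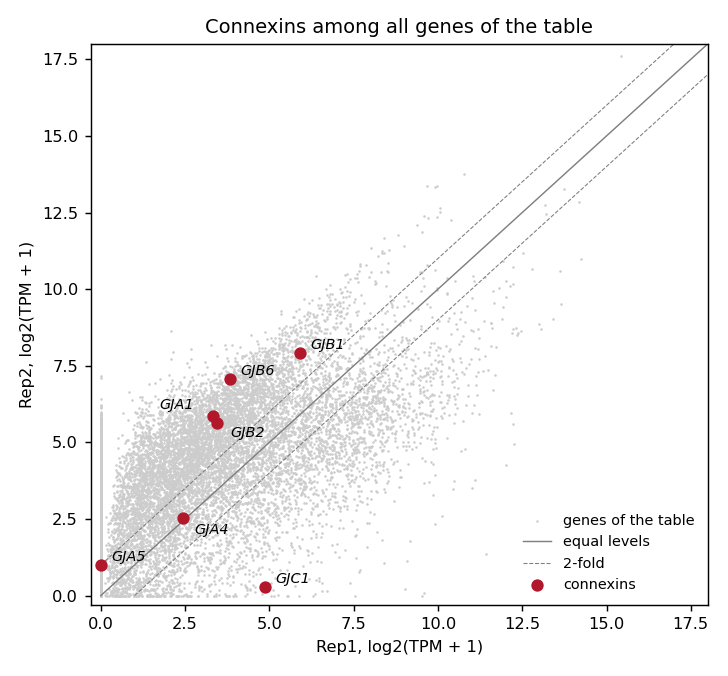
Level of each gene of the table in Rep1 (x axis) and Rep2 (y axis) as log2(TPM + 1), with the 7 connexins in red, a line of equal levels and dashed lines at a 2-fold difference. *GJB1*, *GJB6*, *GJA1* and *GJB2* lie above the band, in the main cloud of genes that are lower in Rep1, *GJA4* lies near the line, and *GJC1* lies at the lower edge, at 28.03 TPM in Rep1 against 0.224 TPM in Rep2.

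The defining markers of the cells from which these connexins are known were above 0 in both libraries for oligodendrocytes (10 of 10), astrocytes (7 of 7) and fibroblasts of the meninges (8 of 8). The 10 oligodendrocyte markers were all at least 2-fold lower in Rep1, with a median difference of -2.36 and a range from -3.21 (*OPALIN*) to -2.13, beside -2.02 for *GJB1*. Their sum was 46092 TPM in Rep1 against 212728 TPM in Rep2, most of it *MBP*, the myelin basic protein gene. *GJB1* amounted to 0.128% of that sum in Rep1 and 0.113% in Rep2, and its ratio to 9 of the 10 single markers was within 2-fold between the libraries.

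The 7 astrocyte markers, which leave out connexins, had a median difference of -1.81, and 6 of them were lower in Rep1. They ranged from -6.55 in *AQP4*, the water channel of astrocyte endfeet, at 3.26 and 398 TPM, to 1.26 in the transcription factor gene *SOX9*, at 50.2 and 20.4 TPM. Their sum was 1139 TPM in Rep1 against 7285 TPM in Rep2, most of it *GFAP* and *S100B*. *GJA1* amounted to 0.800% of that sum in Rep1 and 0.786% in Rep2, *GJB2* to 0.875% and 0.674%, and *GJB6* to 1.16% and 1.84%. The ratio of *GJA1* to the astrocyte sum thus differed by 1.02 times between libraries in which its level differed by 6.29 times. Against single markers the ratios were less even, since for each of these 3 connexins it stayed within 2-fold for 3 of the 7 markers.

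*GJB2* was also set against 8 markers of meningeal fibroblasts, whose sum was 1644 TPM in Rep1 against 15265 TPM in Rep2 and of which all 8 were lower in Rep1 (median -2.84). It amounted to 0.606% of that sum in Rep1 and 0.322% in Rep2, a difference of 1.89 times, against 1.30 times for the astrocyte sum. These libraries hold whole nerve, in which fewer cells of a type and less RNA per cell cannot be told apart, and the cell that gave rise to a transcript was not observed.

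**Figure D4:**
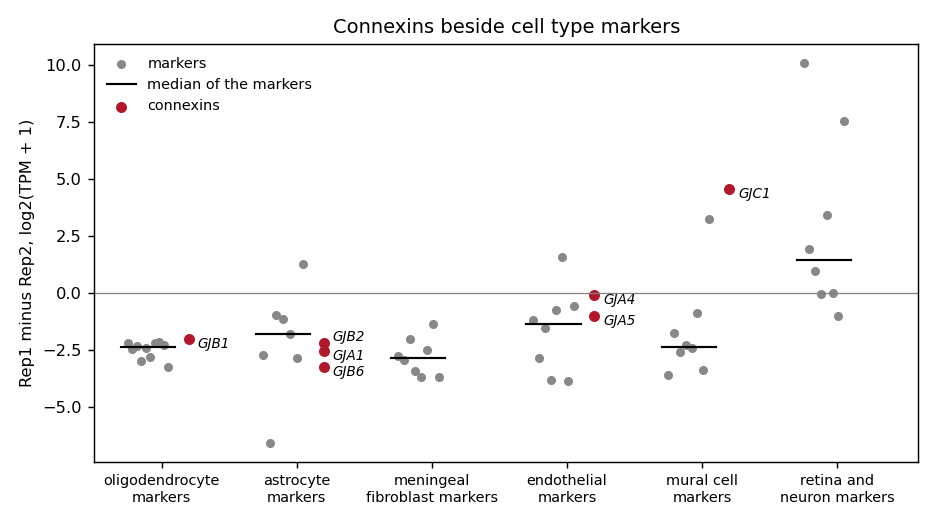
Difference between the libraries, Rep1 minus Rep2 on the log2(TPM + 1) scale, for the markers of 6 cell types (grey points, black line at their median) and for the connexins known from those cells (red). *GJB1*, *GJA1*, *GJB2* and *GJB6* lie below 0 beside markers with medians of -2.36 and -1.81, *GJA4* lies near 0, and *GJC1*, at 4.57, lies above every mural cell marker and within the range of the retina and neuron markers.

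*GJA4* and *GJA5* were set against 8 endothelial markers, of which 7 were lower in Rep1 and 2, *VWF* and *EMCN*, were listed at 0 there. The endothelial sum was 38.2 TPM in Rep1 against 122.7 TPM in Rep2. *GJA4* amounted to 11.6% of it in Rep1 and 3.88% in Rep2, a difference of 2.99 times, and *GJA5* to 0.827% in Rep2. Of the summed markers of pericytes and vascular smooth muscle, *GJA4* amounted to 1.86% in Rep1 and 0.400% in Rep2, a difference of 4.65 times. Both ratios of *GJA4* in Rep1 rest on at least 2 reads of this gene.

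For *GJC1*, the 8 markers of pericytes and vascular smooth muscle were lower in Rep1 in 7 of 8, with a median of -2.34, and summed to 238 TPM in Rep1 against 1189 TPM in Rep2. *CSPG4* and *NOTCH3* were listed at 0 in Rep1. *GJC1* moved the other way, from 0.0188% of that sum in Rep2 to 11.8% in Rep1, as did 1 marker of the list, the potassium channel gene *KCNJ8*, at 17.7 TPM in Rep1 against 0.953 TPM in Rep2. The 8 genes of retina and neurons summed to 3913 TPM in Rep1 against 28.9 TPM in Rep2, with 5 of 8 higher in Rep1, 4 of them at least 2-fold, a median of 1.47 and *CRX* at 0 in Rep2. *GNAT1* and *SNAP25* carried nearly all of the sum in Rep1, since the other 6 genes summed to 28.6 TPM there and 22.4 TPM in Rep2. Their part in the level of *GJC1* was not tested.

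The table lists 14 further connexin genes. Together they summed to 13.6 TPM in Rep1 against 13.1 TPM in Rep2, far below the 7 members. In Rep1, 2 of the 14 were above 0, and in Rep2 9 were, while 4 were listed at 0 in both. The highest on the mean was *GJD2*, which encodes the neuronal connexin Cx36, at 12.3 TPM in Rep1 and listed at 0 in Rep2. *GJC3*, which Rep1 listed at 0, reached 3.97 TPM in Rep2. The 3 pannexins, which form channels in single membranes, were listed at 0 in Rep1 and reached at most 2.23 TPM in Rep2 (*PANX1*).

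Of 15 genes whose products are known to meet connexins at the membrane or its cytoskeleton, 14 were listed. Between the libraries, 6 were at least 2-fold lower in Rep1, 3 at least 2-fold higher and 5 neither, with a median of -0.74, beside 58.7% lower and 18.2% higher among all genes whose mean reached 1 TPM. The scaffold gene *TJP1*, whose product ZO-1 binds the tail of Cx43, was at 137 TPM in Rep1 against 230 TPM in Rep2. *HEPACAM*, which encodes an astrocyte adhesion molecule that meets Cx43 and MLC1 at cell contacts, was at 5.22 and 96.6 TPM, and *MLC1* at 6.65 and 45.3 TPM. *TUBA1A*, an alpha-tubulin gene and the highest of the list, was at 5915 and 2297 TPM.

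Of 12 genes for kinases and for turnover of Cx43, 8 were at least 2-fold higher in Rep1, 0 at least 2-fold lower and 4 neither, with a median of 1.49, while 18.2% of all genes whose mean reached 1 TPM were at least 2-fold higher and 58.7% at least 2-fold lower. The lowest was *SRC*, at 0.299 and 1.58 TPM, and *PRKCA*, a protein kinase C gene, was at 127 TPM in Rep1 against 2.22 TPM in Rep2. Most of these genes act in all cells, so their levels are those of the whole nerve and not of coupled astrocytes. Of 6 genes for the potassium, glucose and lactate traffic that gap junctions serve, 4 were at least 2-fold lower in Rep1, 1 at least 2-fold higher and 1 neither. This is near the shares of all genes (58.7% and 18.2%). The potassium channel gene *KCNJ10* was at 2.35 TPM in Rep1 against 22.0 TPM in Rep2. The gene at least 2-fold higher was *SLC2A1*, the glucose transporter gene, at 388 and 81.6 TPM.

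Likeness was measured as the distance between genes in log2(TPM + 1) over the 2 libraries, and the 3 nearest genes were taken for each member above 0 in both. For *GJB1* these were *LMAN2* (distance 0.016), *DEK* and *TECR*. They were *CGNL1* (0.057), *MFAP2* and *LRRFIP1* for *GJB6*, *PAWR* (0.016), *POLR2J* and *HIGD2A* for *GJA1*, and *TRUB2* (0.022), *OSGEP* and *MRPL55* for *GJB2*. Genes near *GJC1* were farther off, among them *ST8SIA4* (0.11) and *ST8SIA2*, which encode enzymes that add polysialic acid. With 2 libraries such nearness reflects level as much as pattern.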

How the data were processed

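Total RNA of macaque optic nerves was made into libraries with a kit for low RNA input that amplifies the cDNA. Per the labels and the study's methods, the authors used FastQC 0.11.9, trimmed bases under a Phred score of 30 with Trim Galore 0.6.6, aligned reads to Mmul_10 with STAR 2.7.1a, counted them with featureCounts 1.5.3 and deposited TPM values computed in R 4.2.0, not pooled. The gene lengths, use of strand and treatment of multiply aligned reads are not given in the sources used here. A transcript with a large share of a library lowers all other TPM values in it.

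The columns Rep1 and Rep2 could not be tied to single sample titles and were used as replicates of the only group. Analysis used Python 3.11, numpy 2.4.6, pandas 2.3.3 and Biopython 1.88. Differences were computed after a log2(TPM + 1) transform, which makes changes of low genes look smaller. No test was run, since with 2 libraries the exact two-sided sign test has p = 0.5 as its smallest value. TPM keeps no read totals, so no interval or detection limit is given. Smallest read numbers are lower bounds, found with a tolerance of 1e-12 and a product under 100000000 for 99.9% of the 10168 genes above 0 in both libraries. Amplified copies of a molecule are not independent reads. The methods for read numbers and spread were tested on simulated data. For spread, the simulated libraries had equal noise and no shift, and low genes were left out. That test therefore does not cover the shift and the unequal depth of these libraries. All 16684 symbols matched the RefSeq annotation of Mmul_10 (release 103).

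The genes named were the members, examples from the fixed lists (the highest and lowest by mean TPM, and others) and the 3 likest genes of each member. Members, lists and rules were chosen with earlier results of these data known. *HEPACAM*, *MLC1*, *TJP1*, *PRKCA*, *KCNJ10*, *KCNJ8* and *SNAP25* were picked after their values were seen, and *CCN3* was not used here. *AQP4*, *SOX9*, *S100B*, *SAG*, *NEFL*, *NEFM*, *CRX*, *GJC3*, *VWF*, *EMCN* and *NOTCH3* were also named with their values known. They are neither the highest nor the lowest of their cell type or connexin lists. Some single genes and sequences are not reported here. Alternatives were another pseudocount, scaling, gene filter, average, number of nearest genes and set of genes summed, leaving out the 10 most abundant genes, and each library alone.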

Additional observations from a re-analysis of the deposited data

How the results depend on the processing

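No paired analysis was possible because both libraries belong to 1 condition. The 37 results were recomputed with the other settings on both libraries. Of these values, 70 lay within the spread or belonged to results that have none, and 6 lay beyond it. The results without a spread are the spread itself and the count of genes differing at least 2-fold. For the difference of a member, the spread was the SD of a single library among the 200 nearest genes. The direction of a difference of at least 2-fold changed in 0. The SD over 2 libraries is wide, so few values could exceed it. Scaling by the median of ratios gave a mean of 4.91 TPM for *GJA4* and leaving out the 10 most abundant genes gave 5.77 TPM, both outside its small SD. Summing all 21 connexin genes put the share of *GJB1* at 45.5%, since the 14 further genes were added to the sum. The percentile of *GJA4* was 22.3 when only genes whose mean reached 1 TPM were ranked and that of *GJA5* was 24.5 among all listed genes, and the difference of *GJA5* was -3.48 with a pseudocount of 0.1. Each library alone gave means that ran from 58.8 to 241 TPM for *GJB1* and from 0.224 to 28.03 TPM for *GJC1*, and percentiles of 53.1 for *GJA4* in Rep1 and 17.7 for *GJA5* in Rep2. The median difference of the members was -0.84 with the median of ratios and -2.29 with a pseudocount of 0.1. Without *GJC1*, chosen after seeing the data, it was -2.10. Rep1 was the higher library for 23.6% of the genes differing at least 2-fold, and for 43.9% once scaled. The depth of Rep1 limits the low genes, where a value of 0 was common.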
